A study of Mus musculus with 6 samples.

Results

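The genes described here are 40 genes of the cell division cycle, 24 that act in mitosis and 16 that act in S phase. They were measured in sorted osteocytes of mice with and without a deletion of estrogen receptor alpha in osteocytes. They were chosen by name, and each is represented by the probe set with the highest mean among those annotated to that gene alone. Such a probe set was found for 39 of the 40 genes, among 18193 genes on the array. Ccnb1 had none and was not analysed here. All 23 mitotic genes with a probe set and 15 of the 16 S phase genes passed the level filter, so 38 were tested. Tyms, the enzyme that makes thymidylate, lay under the filter, with deposited signals of 7.2 to 13.5 on the 6 arrays.

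Osteocytes are the cells embedded in bone matrix, and the study asked how their transcripts differ when estrogen receptor alpha, encoded by Esr1, is deleted in them. Total RNA was measured on 1-colour Affymetrix arrays, 3 from knockout mice and 3 from control littermates. Mice of both groups carried Dmp1-GFP, a fluorescent marker driven by a promoter that is active in osteocytes. The labels give female C57/BL6 mice aged 10 to 12 days, while the extraction text speaks of 10-day-old animals. The knockout group is ERαΔOcy/ΔOcy, with the receptor deleted in osteocytes. The labels describe the controls as wild type littermates, but the protocol for extraction names ERαflox/flox mice instead. Neither the Cre line nor its presence in controls was stated there, so an effect of Cre cannot be told apart from that of receptor loss. Calvarial cells released in fractions 4 to 6 of successive 30-min digestions were sorted for fluorescence through a gate set to take 10% to 15% of cells where the marker was present and between 0.8% and 1.0% where it was absent. The arrays are titled as biological replicates, and the design text says that RNA was not pooled, but the extraction text speaks of pooled tissue. The p-values therefore measure the spread between these samples, which may not be the spread between mice.

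A dividing cell copies its DNA in S phase and separates the copies in mitosis. Before S phase, E2F factors released from the retinoblastoma protein turn on genes for origin licensing, the MCM helicase and nucleotide supply. Later a complex of B-Myb, the MuvB core and Foxm1 turns on genes for cyclins, mitotic kinases and the spindle, and in resting cells the related DREAM complex holds them down. Osteocytes themselves are non-dividing cells, which arise from osteoblast precursors that can divide.

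These programmes are usually recognised by short motifs in the promoters. RefSeq windows on GRCm38.p6, each reaching from 250 bases before to 50 bases after a gene start, were at hand for 19 of the 24 mitotic and 13 of the 16 S phase genes. Ccna2, Aurkb, Kif20a, Tpx2, Foxm1, Ccne2, Mcm4 and Gins1 are the others. Both strands were searched, and overlapping matches were counted. The cell cycle homology region, spelled TTTGAA here and read as TTCAAA on the other strand, was found in 14 of 19 mitotic windows (73.7%), 1 of 13 S phase windows (7.69%) and 20.2% of all 27025 windows. The CCAAT box was found in 17 mitotic windows (89.5%), 8 S phase windows (61.5%) and 41.1% of all windows. Both motifs stood together in 73.7% of mitotic, 7.69% of S phase and 7.97% of all windows. An E2F motif was counted where the letters TTCCCGC in one form, TTCGCGC in another, TTGCCGC in a further or TTGGCGC in the last form were present. It was in 3 mitotic windows (15.8%), 8 S phase windows (61.5%) and 10.9% of all windows. A match of letters describes the sequence and does not show that a factor binds there.

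The following stretches of 180 bases, which end at or shortly before the gene start, are from the mitotic and S phase genes with the most matches and show how the motifs are laid out. Capitals mark the cell cycle homology region and CCAAT matches in the 3 mitotic genes, and the E2F matches in the S phase genes, on either strand. Top2a lies at chr11:99024199-99024378 (minus strand), Ube2c at chr2:164769743-164769922 (plus strand) and Ccnb2 at chr9:70421555-70421734 (minus strand). Mcm6 lies at chr1:128359706-128359885 (minus strand) and Mcm5 at chr8:75109329-75109508 (plus strand).
Top2a: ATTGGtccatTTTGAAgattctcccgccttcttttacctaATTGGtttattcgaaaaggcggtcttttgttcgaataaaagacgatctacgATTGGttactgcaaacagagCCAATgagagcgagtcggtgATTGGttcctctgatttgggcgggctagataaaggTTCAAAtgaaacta
Ube2c: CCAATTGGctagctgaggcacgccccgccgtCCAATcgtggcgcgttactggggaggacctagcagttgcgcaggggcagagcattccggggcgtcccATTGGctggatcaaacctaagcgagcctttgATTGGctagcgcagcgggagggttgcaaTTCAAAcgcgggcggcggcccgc
Ccnb2: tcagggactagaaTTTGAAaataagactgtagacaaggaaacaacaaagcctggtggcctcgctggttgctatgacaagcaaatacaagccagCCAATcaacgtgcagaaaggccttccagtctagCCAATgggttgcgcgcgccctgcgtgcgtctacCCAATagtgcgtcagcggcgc
Mcm6: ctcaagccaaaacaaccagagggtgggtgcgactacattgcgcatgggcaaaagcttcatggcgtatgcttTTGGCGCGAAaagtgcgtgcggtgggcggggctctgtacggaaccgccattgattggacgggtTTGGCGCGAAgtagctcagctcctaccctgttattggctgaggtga
Mcm5: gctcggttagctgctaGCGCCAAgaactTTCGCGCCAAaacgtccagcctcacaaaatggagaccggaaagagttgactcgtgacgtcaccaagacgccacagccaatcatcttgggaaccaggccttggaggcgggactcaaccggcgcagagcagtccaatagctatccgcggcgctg

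Top2a showed 2 homology region matches and 5 CCAAT matches, of which the homology region match nearest the start follows a row of CCAAT boxes. Ube2c held 1 homology region match behind 5 CCAAT matches, and Ccnb2 showed 1 before 3 CCAAT matches. A second homology region match of Ccnb2, behind the CCAAT boxes, begins just after the gene start and is not printed. Mcm6 showed 4 E2F matches in 2 overlapping pairs, and Mcm5 showed 3. The 3 E2F matches of Mcm3 lie after the gene start and are not printed.

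Levels are given as log2(signal + 16) after quantile normalisation between arrays, in the order of replicates 1, 2 and 3, and a difference is knockout minus control on that scale, with its SE from limma (n = 3 per group). Esr1, the deleted gene, was read from 3 probe sets. The brightest Esr1 probe set had deposited signals of 115.4, 94.1 and 83.3 in controls and 81.5, 76.1 and 123.8 in knockouts, a difference of -0.20 ± 0.12. A dim Esr1 probe set read 20.2, 11.6 and 13.3 in controls and 1.0, 1.0 and 2.5 in knockouts, a difference of -0.865 ± 0.13, and another differed by -0.13 ± 0.20. The sources used here give neither the deleted exon nor the probe positions, so these values do not check the labels. Of 10 osteocyte markers 9 were above the level filter (Fgf23 was not), and Dmp1 was at 12.85 ± 0.16 in controls and 12.55 ± 0.14 in knockouts (SD, n = 3).

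No cell cycle gene passed the test between genotypes in limma after adjustment over all 10916 genes tested, which does not show that their levels were equal. The count was 0 of 38 at an adjusted p of 0.05, and the background was 0.0% of all genes in either direction, with a smallest adjusted p of 0.12 among all genes and 0.329 among these 38. At an unadjusted limma p under 0.05, 0 of the 38 were higher in knockouts (background 5.85%) and 1, Foxm1, was lower (background 4.69%; either direction 10.5%). Groups did not overlap for 1 gene on the higher side, Ccne1 (background 9.23%), and for 2 on the lower side, Foxm1 and Cdc6 (background 7.76%). These shares are below those of all genes. With the deposited scaling the groups did not overlap for 3 S phase genes on the higher side, Ccne1, Pcna and Cdt1, and for Foxm1 on the lower side, against 12.4% and 0.779% of all genes. With 3 arrays against 3, an exact permutation test of a single gene cannot go below 0.1. In RNA of a whole sorted population, fewer cycling cells and less RNA per cycling cell cannot be told apart.

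Differences of the mitotic genes lay mostly below 0 and those of the S phase genes mostly above 0. Of 23 mitotic genes, 8 had a difference above 0 and 15 below, with a median of -0.09 and a range from -0.48 to 0.08. Of 15 S phase genes, 11 lay above 0 and 4 below, with a median of 0.13 and a range from -0.31 to 0.37. Over all tested genes 48.3% lay above and 51.7% below 0, with a median of -0.01. The median SE of a single gene was 0.24 for mitotic and 0.18 for S phase genes, so most mitotic differences were smaller than their own error.

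**Figure D1:**
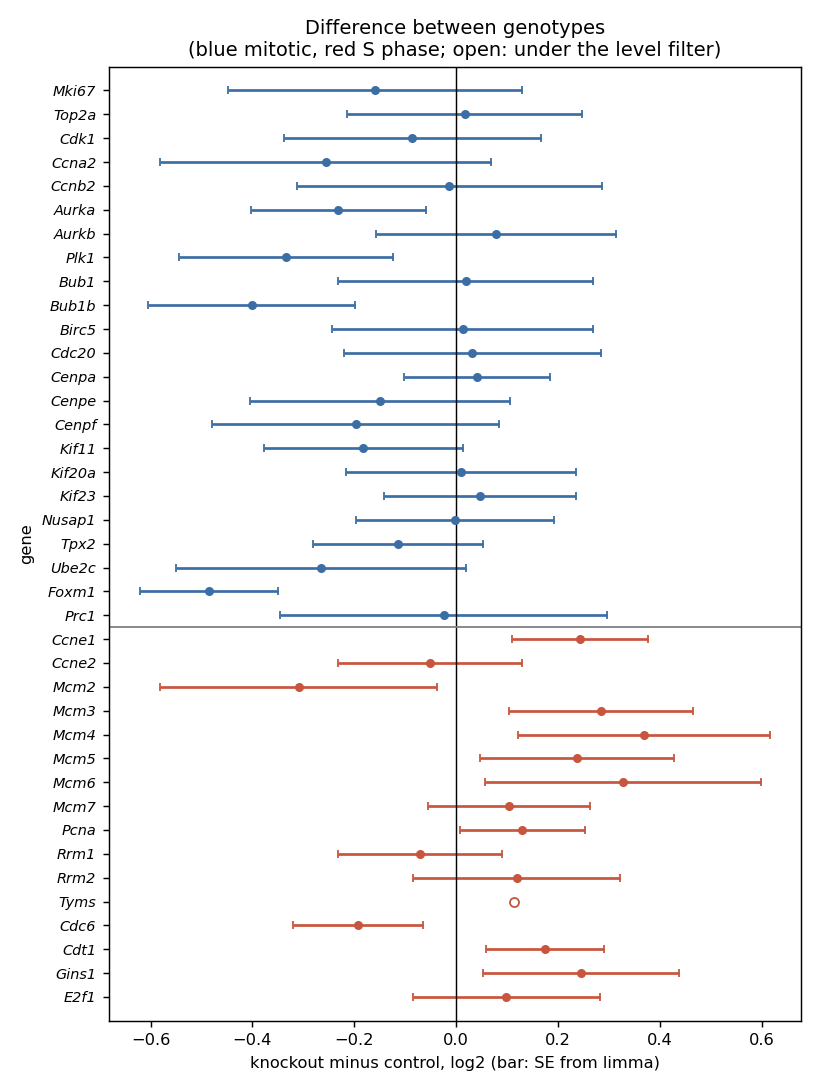
Difference between knockout and control on the log2 scale (x axis) for each cell cycle gene (y axis), with bars of 1 SE from limma (n = 3 per group). Mitotic genes (blue) run from -0.48 to 0.08, S phase genes (red) run from -0.31 to 0.37, and the open circle is Tyms, which was not tested.

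The widest spread in these genes lay between the control arrays. In 22 of 23 mitotic genes the range of the controls was wider than that of the knockouts, against 11 of 15 S phase genes and 67.4% of all genes. The median control range was 0.93 for mitotic genes and 0.60 for S phase genes, against 0.34 over all genes. The median knockout range was 0.28, 0.26 and 0.24 for the same 3 sets. In 9 mitotic genes, 1 S phase gene and 6.81% of all genes the controls spanned more than 1 log2 unit.

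One order of the controls recurred. Control replicate 1 lay above control replicate 3, and that above control replicate 2, in 21 of 23 mitotic genes, 9 of 15 S phase genes and 19.5% of all genes. Kif23 and Foxm1 were the exceptions among the mitotic genes. Control 2 was the lowest control in 22 mitotic and 11 S phase genes (background 35.9%). It was the lowest of all 6 arrays in 20 mitotic and 9 S phase genes (background 21.8%). Control 1 was the highest of the 6 in 22 mitotic genes and 5 S phase genes (background 21.0%). Both ends were held by these 2 controls in 19 mitotic genes, 4 S phase genes and 6.84% of all genes. All 3 knockouts lay between them in 19 mitotic genes, 4 S phase genes and 10.2% of all genes. The same order in the signals as deposited, without quantile normalisation, was seen in 22 mitotic genes (95.7%), against 27.7% of all genes.

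**Figure D2:**
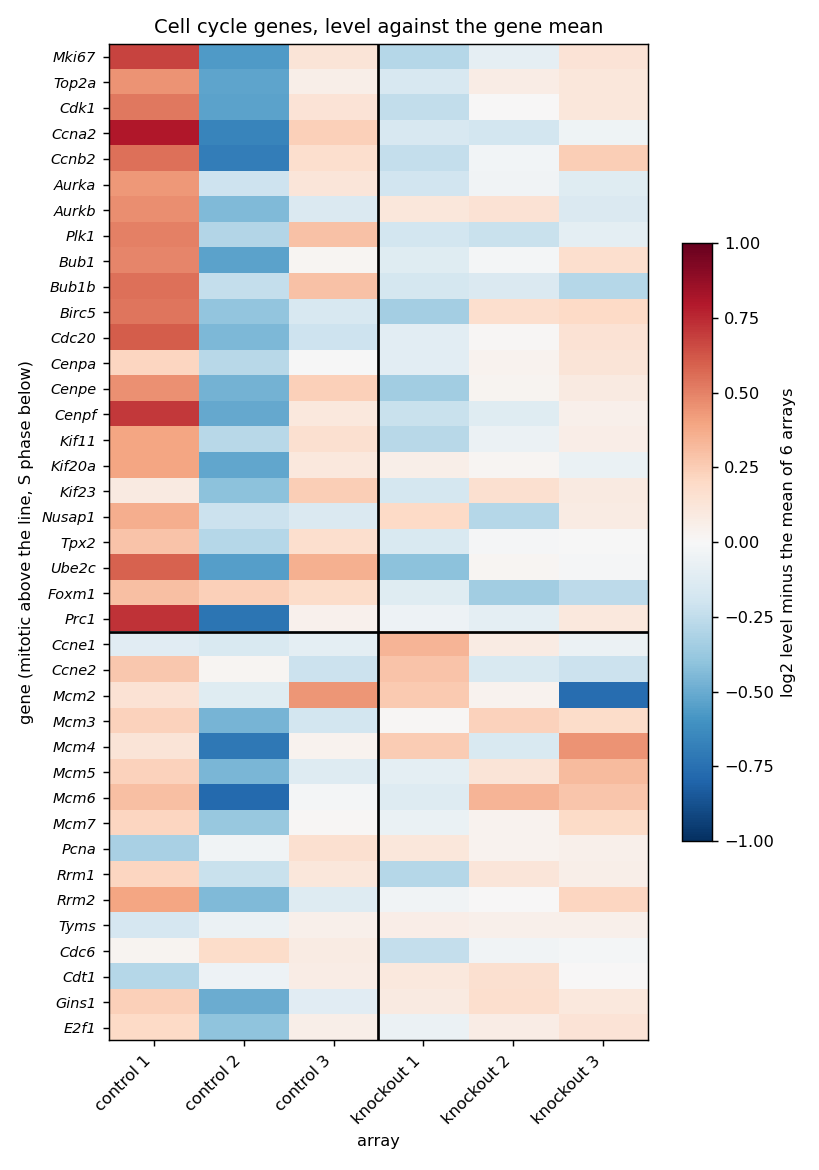
Level of each cell cycle gene (rows, mitotic above the line and S phase below) on each of the 6 arrays (columns), as log2 level minus that gene's mean over the arrays. Control 1 is the highest array for 22 of 23 mitotic genes and control 2 the lowest for 20, with the knockouts mostly near the gene mean.

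Among general markers of cycling chromatin, Mki67, which coats chromosomes in mitosis and is the usual proliferation marker, was at 9.09, 7.85 and 8.54 in controls and 8.13, 8.32 and 8.55 in knockouts. Top2a, the topoisomerase that untangles sister chromatids, was at 9.16, 8.18 and 8.77 in controls and 8.55, 8.79 and 8.82 in knockouts. For both genes control 1 was the highest array, control 2 the lowest, and the knockouts fell inside the control range. Mki67 differed by -0.16 ± 0.29 (limma adjusted p = 0.880) and Top2a by 0.02 ± 0.23 (limma adjusted p = 0.988). The deposited Mki67 signals were 555.4, 197.2 and 312.8 in controls and 258.7, 287.7 and 451.8 in knockouts.

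Kinases and cyclins that drive entry into mitosis followed the same layout. Cdk1, the mitotic cyclin-dependent kinase, was at 8.82, 7.77 and 8.43 in controls and 8.05, 8.30 and 8.41 in knockouts. Its partner Ccna2, cyclin A2, was at 8.47, 7.01 and 7.90 against 7.51, 7.48 and 7.62. Ccnb2, cyclin B2, was at 8.02, 6.78 and 7.63 against 7.23, 7.44 and 7.71. The groups overlapped in all 3 genes, with every knockout array between control 2 and control 1. Their differences were -0.09 ± 0.25 for Cdk1, -0.26 ± 0.32 for Ccna2 and -0.01 ± 0.30 for Ccnb2 (limma adjusted p = 0.928, 0.815 and 0.991). Ccna2 had the widest gap between control 1 and control 2 among the mitotic genes, beside a narrow knockout group.

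Plk1, the polo kinase that acts at centrosomes and kinetochores, was at 6.52, 5.73 and 6.32 in controls and 5.84, 5.80 and 5.93 in knockouts. Aurka, the kinase of the spindle poles, was at 6.97, 6.33 and 6.65 against 6.35, 6.50 and 6.42. In both, controls 1 and 3 lay above every knockout array and control 2 lay below them. Plk1 differed by -0.33 ± 0.21 and Aurka by -0.23 ± 0.17 (limma adjusted p = 0.606 and 0.670). Aurkb, the kinase of the chromosomal passenger complex, differed by 0.08 ± 0.24, the highest difference among the mitotic genes.

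Spindle checkpoint genes are switched on late in the cycle and delay chromosome separation until every kinetochore is attached. Bub1b, which encodes the checkpoint protein BubR1, was at 6.84, 6.05 and 6.59 in controls and 6.12, 6.15 and 6.01 in knockouts. Knockouts sat at the level of control 2 and below the other controls, with a difference of -0.40 ± 0.20 (limma adjusted p = 0.530). A second Bub1b probe set above the filter differed by -0.09 only. Bub1, the kinase that places other checkpoint proteins, was at 6.67, 5.65 and 6.20 against 6.06, 6.16 and 6.35, a difference of 0.02 ± 0.25 (limma adjusted p = 0.988). Here the knockouts lay in the middle of the control range.

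At the centromere, Cenpa is the histone that marks it, while Cenpe and Cenpf link kinetochores to microtubules. Their differences were 0.04 ± 0.14, -0.15 ± 0.26 and -0.20 ± 0.28, and control 1 was the highest and control 2 the lowest array in each. Birc5, survivin of the passenger complex, was at 8.25, 7.31 and 7.55 in controls and 7.37, 7.87 and 7.91 in knockouts, a difference of 0.01 ± 0.26 (limma adjusted p = 0.989). It had 1 low and 2 middling knockout arrays, all within the control range.

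The 6 genes of the spindle and of cytokinesis had a median control range of 0.66, below the 0.93 of all mitotic genes. Prc1, which bundles microtubules in the central spindle, was an exception at 7.83, 6.38 and 7.15 in controls and 7.06, 7.01 and 7.21 in knockouts. Its difference was -0.02 ± 0.32 (limma adjusted p = 0.988), with controls on both sides of a tight knockout group. The motor proteins Kif11, Kif20a and Kif23 differed by -0.18 ± 0.20, 0.01 ± 0.23 and 0.05 ± 0.19. Kif23, a motor of the midzone, was the one mitotic gene in which control 1 was not the highest array, at 6.94, 6.44 and 7.10 in controls and 6.67, 7.004 and 6.94 in knockouts. Nusap1, a spindle-associated protein, and Tpx2, which activates the Aurka kinase, differed by -0.00 ± 0.19 and -0.11 ± 0.17.

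Genes that act at anaphase had a median control range of 1.09. Cdc20, the activator of the anaphase-promoting complex, was at 9.37, 8.31 and 8.55 in controls and 8.66, 8.77 and 8.90 in knockouts. Ube2c, the ubiquitin-conjugating enzyme of that complex, was at 8.61, 7.47 and 8.38 against 7.61, 8.04 and 8.01. Knockouts lay above controls 2 and 3 for Cdc20, and below controls 1 and 3 for Ube2c. The differences were 0.03 ± 0.25 and -0.27 ± 0.29 (limma adjusted p = 0.979 and 0.781).

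Foxm1, the transcription factor of the late mitotic programme, departed from this layout. It was at 5.92, 5.86 and 5.80 in controls and 5.50, 5.27 and 5.36 in knockouts, the sole mitotic gene whose groups did not overlap. The 3 controls were close together, with means of 5.86 ± 0.06 in controls and 5.38 ± 0.11 in knockouts (SD, n = 3), which is 1.40-fold lower on the log2(signal + 16) scale. The difference was -0.48 ± 0.14, with an unadjusted limma p of 0.0079 and an adjusted p of 0.329. With each array left out in turn it ran from -0.54 to -0.44. The unadjusted limma p was 0.123 with the deposited scaling and 0.102 with the mean of all its probe sets, both above 0.05. Its deposited signals were low, at 47.1, 38.4 and 34.4 in controls and 28.6, 21.0 and 32.7 in knockouts. Before normalisation control 3 lay just above knockout 3. The other 3 Foxm1 probe sets lay under the filter and differed by -0.54, -0.15 and 0.03.

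**Figure D3:**
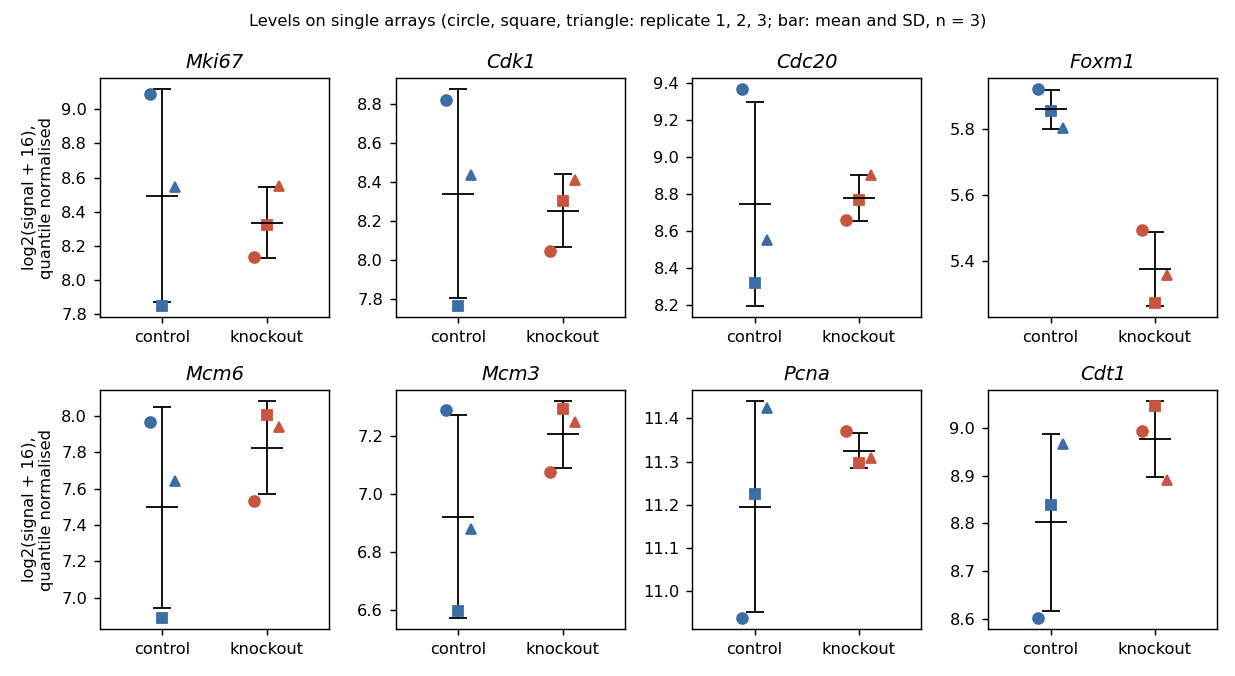
Level of 8 cell cycle genes on single arrays, as log2(signal + 16) after quantile normalisation (y axis, with its own range for each gene), for 3 control (blue) and 3 knockout (red) arrays, with the mean and SD. Mki67, Cdk1 and Cdc20 have control 1 at the top and control 2 at the bottom, Foxm1 has separate groups, and Pcna and Cdt1 have control 1 at the bottom.

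The S phase genes start with those that carry a cell from G1 into S phase. Ccne1, cyclin E1, was at 6.40, 6.36 and 6.42 in controls and 6.86, 6.60 and 6.45 in knockouts, and all knockouts lay above all controls. The gap between knockout 3 and the highest control was small, and the difference was 0.24 ± 0.13 (limma adjusted p = 0.565). A second Ccne1 probe set above the filter differed by 0.35, but there the groups overlapped. Ccne2, cyclin E2, differed by -0.05 ± 0.18, and E2f1, the factor that opens the S phase programme, by 0.10 ± 0.18. E2f1 was at 5.98, 5.38 and 5.84 in controls and 5.72, 5.85 and 5.91 in knockouts, with control 1 highest and control 2 lowest.

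Loading of the helicase needs Cdc6 and Cdt1, and its firing needs the GINS complex that holds Gins1. Cdc6 was at 6.06, 6.22 and 6.12 in controls and 5.80, 6.01 and 6.02 in knockouts, with all knockouts below all controls by a narrow margin. Cdt1 was at 8.60, 8.84 and 8.96 against 8.99, 9.05 and 8.89. Gins1 was at 6.29, 5.55 and 5.94 against 6.14, 6.22 and 6.15. The differences were -0.19 ± 0.13 for Cdc6, 0.17 ± 0.12 for Cdt1 and 0.25 ± 0.19 for Gins1 (limma adjusted p = 0.625, 0.629 and 0.689).

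The MCM helicase, the 6-subunit ring that unwinds DNA at replication forks, had 5 of its 6 subunits above 0. Mcm6 was at 7.97, 6.89 and 7.64 in controls and 7.53, 8.002 and 7.94 in knockouts. Mcm3 was at 7.29, 6.60 and 6.88 against 7.08, 7.29 and 7.25. Control 2 was the lowest array for both, and the highest control lay beside the highest knockout. Their differences were 0.33 ± 0.27 and 0.28 ± 0.18 (limma adjusted p = 0.701 and 0.611). Mcm4 differed by 0.37 ± 0.25, the highest difference among the S phase genes, Mcm5 by 0.24 ± 0.19 and Mcm7 by 0.10 ± 0.16. Another probe set above the filter differed by 0.07 for Mcm4, 0.37 for Mcm5 and 0.34 for Mcm6. Further ones differed by 0.004 and 0.28 for Mcm3 and by 0.15, -0.04 and 0.02 for Mcm7. Mcm2 was the remaining subunit at -0.31 ± 0.27, with levels of 7.90, 7.63 and 8.20 in controls and 8.02, 7.80 and 6.99 in knockouts. Its low value came from knockout 3 alone, and a second Mcm2 probe set above the filter differed by 0.21.

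Pcna, the sliding clamp of the replication fork, was at 10.94, 11.22 and 11.42 in controls and 11.37, 11.30 and 11.31 in knockouts, a difference of 0.13 ± 0.12 (limma adjusted p = 0.747). Pcna and Cdt1 were the tested S phase genes with control 1 as the lowest of the 6 arrays, where most mitotic genes had it as the highest. These 2 of 15 are a smaller share than the 18.9% of all genes. Rrm1 and Rrm2, the subunits of ribonucleotide reductase that make DNA precursors, differed by -0.07 ± 0.16 and 0.12 ± 0.20. Rrm2 was at 9.27, 8.44 and 8.75 against 8.85, 8.88 and 9.09, again with control 1 highest and control 2 lowest. Of 2 further Rrm2 probe sets above the filter, 1 differed by -0.39, the opposite sign, and 1 by 0.04. A second Rrm1 probe set differed by -0.34. Both the Rrm2 set at -0.39 and this Rrm1 set had an unadjusted limma p under 0.05.

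Where a gene had other probe sets above the filter, these gave the same sign as the chosen one in 12 of 15 for S phase genes and 6 of 10 for mitotic genes. Control 2 was the lowest control in 8 of those 10 mitotic probe sets.

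The position of the mitotic genes between genotypes depended on the 2 controls at the ends. Without control 1, 17 of 23 mitotic genes lay above 0 (background 50.0%) and their median difference was 0.14. Without control 2, all 23 lay below 0 (background 51.1%) and the median was -0.37. The median of all genes was -0.0001 without control 1 and -0.0044 without control 2. The S phase median was 0.24 without control 1 and 0.02 without control 2. It was above 0 with each of the 6 arrays left out in turn. Without control 2, however, 8 of the 15 S phase genes lay above 0 and 7 below (background 48.9% above).

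Control 2 was the lowest control in 22 of 23 mitotic genes, so leaving it out lowers their differences by construction. Leaving out control 1, the highest array in 22, raises them in the same way. Without control 2, 9 of the 38 genes lay below 0 at an unadjusted limma p under 0.05 (background 8.73%), and 0 lay above (background 7.61%). The 9 were Aurka, Bub1b, Ccna2, Cdk1, Cenpf, Foxm1, Mki67, Plk1 and Ube2c. The smallest adjusted limma p among them was 0.0773, for Bub1b, at a difference of -0.62, followed by 0.101 for Plk1, at -0.57. Over all genes 0.788% were then higher and 1.88% lower at an adjusted limma p of 0.05, and 0 of the 38 were among them. Without control 1, 5 genes lay above 0 at an unadjusted p under 0.05 in limma, namely Cdc20, Gins1, Mcm3, Mcm5 and Rrm2 (background 5.88%). Foxm1 alone lay below (background 6.16%). Of these, Mcm3 had the smallest limma adjusted p, 0.299, at a difference of 0.47.

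**Figure D4:**
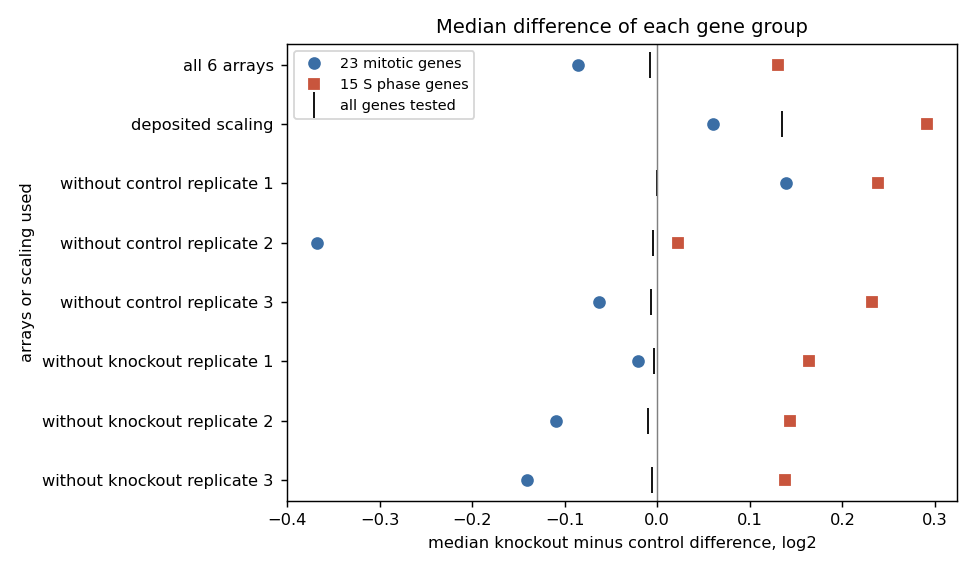
Median knockout minus control difference on the log2 scale (x axis) of the 23 mitotic genes (blue), the 15 S phase genes (red) and all tested genes (black line), with all arrays, with the deposited scaling, and with each array left out (y axis). The mitotic median runs from -0.37 without control 2 to 0.14 without control 1, while the S phase median stays above 0, at 0.02 without control 2.

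Scaling also moved the middle of the comparison. With the deposited scaling the median of all genes was 0.14, 76.3% of genes lay above 0, and 0.275% were higher at an adjusted limma p of 0.05. The mitotic median was then 0.06, with 13 of 23 genes above 0, and the S phase median was 0.29, with 13 of 15 above 0. Against the median of all genes, mitotic genes differed by -0.08 and S phase genes by 0.16, against -0.08 and 0.14 after quantile normalisation.

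Further genes of the same pathways were read from lists. Of 40 further mitotic genes 38 were tested, 8 above and 30 below 0 with a median of -0.14, and 33 had the same order of the controls. At an unadjusted limma p under 0.05, 1 was higher, Cks2, a small partner of cyclin-dependent kinases (0.25, adjusted p = 0.402; background 5.85%), and 0 were lower (background 4.69%). Pttg1, which is securin, and Smc4, a condensin subunit, differed by -0.13 and -0.23. Of 40 further S phase genes 35 were tested, 24 above and 11 below 0 with a median of 0.08. Of these, 3 were higher at an unadjusted limma p under 0.05 (Dtl, Rfc3 and Tipin; background 5.85%) and 0 lower. Groups did not overlap on the higher side for 6 of the 35 (Gins2, Pola1, Rfc3, Rpa2, Dtl and Tipin; background 9.23%). Dtl, which targets Cdt1 for destruction, differed by 0.59 ± 0.15 (limma adjusted p = 0.311), with levels of 6.31, 5.86 and 6.08 in controls and 6.62, 6.57 and 6.82 in knockouts. Rfc3, a clamp loader subunit, differed by 0.30. Gins2, Pola1, Rpa2, Dtl and Rfc3 were named after the values were seen. Tipin, which stabilises forks, differed by 0.36, Slbp, which binds histone messages, by 0.08 and Dnmt1, the maintenance methyltransferase, by -0.04.

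Upstream of S phase, 3 of 10 tested G1 cyclins and kinases had knockouts above controls without overlap and an unadjusted limma p under 0.05, where all genes gave 9.23% without overlap on that side and 5.85% past that p. Ccnd1, cyclin D1, was at 8.81, 8.39 and 8.59 in controls and 8.82, 9.01 and 8.98 in knockouts. Ccnd2, cyclin D2, was at 10.44, 10.50 and 10.71 against 10.78, 11.16 and 10.97. Cdk4, the kinase that these cyclins activate, was at 8.90, 8.74 and 8.87 against 8.999, 9.43 and 9.28. Knockout 2 was the highest array for all 3 genes, and the gap to the controls was narrowest for Ccnd1. Their differences were 0.34 ± 0.13, 0.42 ± 0.12 and 0.40 ± 0.13 (limma adjusted p = 0.426, 0.338 and 0.377). Ccnd3 differed by 0.25, Ccnh by 0.08, Cdk2 and Cdc25b by 0.01, Cdk7 by -0.11 and Cdc25a by -0.17, with Cdk6 at -0.04 and Cdc25c under the filter.

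The inhibitors of these kinases were split, with 3 above and 3 below 0 among 6 tested. Cdkn1c, the inhibitor p57, was at 9.83, 8.77 and 9.53 in controls and 9.94, 10.11 and 9.89 in knockouts and differed by 0.60 ± 0.25 (limma adjusted p = 0.457). Knockouts lay above controls without overlap for 2 of the 6, Cdkn1c and, by a narrow margin, Cdkn2b (background 9.23%). Cdkn1a, the inhibitor p21, differed by 0.13 ± 0.13 and Cdkn2b by 0.25. Cdkn1b, Cdkn2c and Cdkn2d differed by -0.15, -0.17 and -0.07, and Cdkn2a lay under the filter.

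Medians of the complexes that switch the programmes on and off lay near 0. Of 18 genes of the pocket proteins, E2F factors and the DREAM complex 16 were tested, 10 above and 6 below 0 with a median of 0.02, and 0 had an unadjusted limma p under 0.05. Rbbp4, Tfdp1 and Rb1, those with the highest levels, differed by 0.03, -0.00 and -0.16. In the anaphase-promoting complex 9 of 15 genes lay above 0 and 6 below, with a median of 0.01. Of these, 2 were lower at an unadjusted limma p under 0.05, Anapc5 (-0.19, adjusted p = 0.467) and Cdc16 (-0.25, adjusted p = 0.431), against 4.69% of all genes. Knockouts lay below controls without overlap for 3 of the 15, namely Anapc5, Cdc16 and Anapc4 (-0.25), against 7.76% of all genes, and above them for Anapc1 (0.20). Anapc4 and Anapc1 were named after the values were seen. Ube2s differed by 0.10.

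As a mean over genes, each centred over the arrays, the mitotic level was 0.48, -0.41 and 0.10 in controls and -0.16, -0.04 and 0.03 in knockouts. The further mitotic genes gave 0.48, -0.33 and 0.06 against -0.17, -0.08 and 0.04. The S phase level was 0.12, -0.30 and 0.01 against 0.04, 0.07 and 0.06, a smaller spread with the same low array. MCM subunits stood at 0.21, -0.49 and 0.03 against 0.04, 0.10 and 0.11, so control 2 was as low for them as for mitotic genes.

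Markers of other cell types moved across the same controls. Skeletal muscle markers (8 of 10 tested) stood at 2.18, -3.87 and 2.15 in controls and -0.67, -0.74 and 0.94 in knockouts, and the summed signal of those with a probe set, also used for the lists that follow, ran from 180 to 34600 in controls and from 4190 to 19700 in knockouts. Control 2, the lowest array for mitotic genes, was also the lowest for muscle markers. Fibroblast markers (8 of 10 tested) stood at 0.88, -0.83 and 0.71 against -0.31, -0.32 and -0.14. Their summed signals were 27100, 22000 and 22000 in controls and 21000 to 24800 in knockouts. Control 2 was the lowest control in 5 of the 8 (background 35.9%), but not for Dcn, Lum and Pdgfra, those with the highest levels. All 10 pericyte and smooth muscle markers were tested and stood at 0.40, -0.29 and 0.50 against -0.16, -0.17 and -0.28, with sums of 15400 to 24600 and 15100 to 18100. Osteocyte markers stood at 0.13, -0.28 and 0.34 against -0.09, 0.03 and -0.13, with sums of 11000 to 14400 and 10700 to 14100. Control 2 had the lowest mean for these too, though its sum, 11000, lay above that of knockout 1. It was the lowest control in 7 of the 9 tested (background 35.9%) and the lowest of the 6 arrays in 4 (background 21.8%). By the mean of the list, controls 1 and 3 were both above control 2 in each of these 4, as for the mitotic genes. Chondrocyte and endothelial markers, given below, had this too, the endothelial ones with controls 1 and 2 close together. The control order 1, 3, 2 of most mitotic genes held in 6 of 8 muscle and 4 of 8 fibroblast markers (background 19.5%). It held in 3 of 10 pericyte and smooth muscle markers and 2 of 9 osteocyte markers. The mitotic level of control 3 lay nearer the knockouts than that of control 1 did.

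Blood cell lists did not have this layout. The 10 macrophage and osteoclast markers stood at -1.15, 0.41 and 0.34 in controls and 0.33, 0.26 and -0.19 in knockouts, so control 1, the highest array for mitotic genes, was the lowest there. Their sums were 6380 to 13800 and 12700 to 13200. Neutrophil and myeloid progenitor markers (7 of 10 tested) stood at 0.42, 0.01 and -0.09 against 0.11, -0.37 and -0.08. The sums of this list were 811 to 1760 and 833 to 1290. Control 1 was the highest of the 6 arrays in 6 of the 7 tested, as in 22 of 23 mitotic genes (background 21.0%). Of 10 erythroid markers 7 had a probe set and 2 were tested, with sums over the 7 of 76.0 to 116 and 106 to 134. Of 10 B cell markers 9 had a probe set and 2 were tested, Ebf1 and Blnk, which held most of the sums over the 9 of 567 to 784 and 526 to 765. Of the 7 under the filter, Cd79a, Vpreb1 and Pax5 had signals of at most 15.0 on every array. Cd79b, Vpreb3, Igll1 and Rag1 reached 28.2, 27.0, 50.1 and 20.8 on their highest array. These 7 genes were named after the values were seen. Chondrocyte markers, all 10 tested, had knockouts above controls without overlap and an unadjusted limma p under 0.05 in all 10, though 0 passed after adjustment. They stood at -0.36, -0.97 and -0.81 against 0.92, 1.04 and 0.17, with sums of 1020 to 2340 and 3940 to 6140. Control 2 was the lowest of the 6 arrays in 8 of the 10, as in 20 of 23 mitotic genes. The control order 1, 3, 2 also held in 8 of the 10, as in 21 of 23 mitotic genes (background 19.5%). Endothelial markers (9 of 10 tested) stood at -0.12, -0.14 and 0.24 against 0.15, 0.02 and -0.15, with sums of 618 to 886 and 723 to 835. No marker with a probe set was at 0 on every array. The part of these cell types in the level of the cell cycle genes was not tested.

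**Figure D5:**
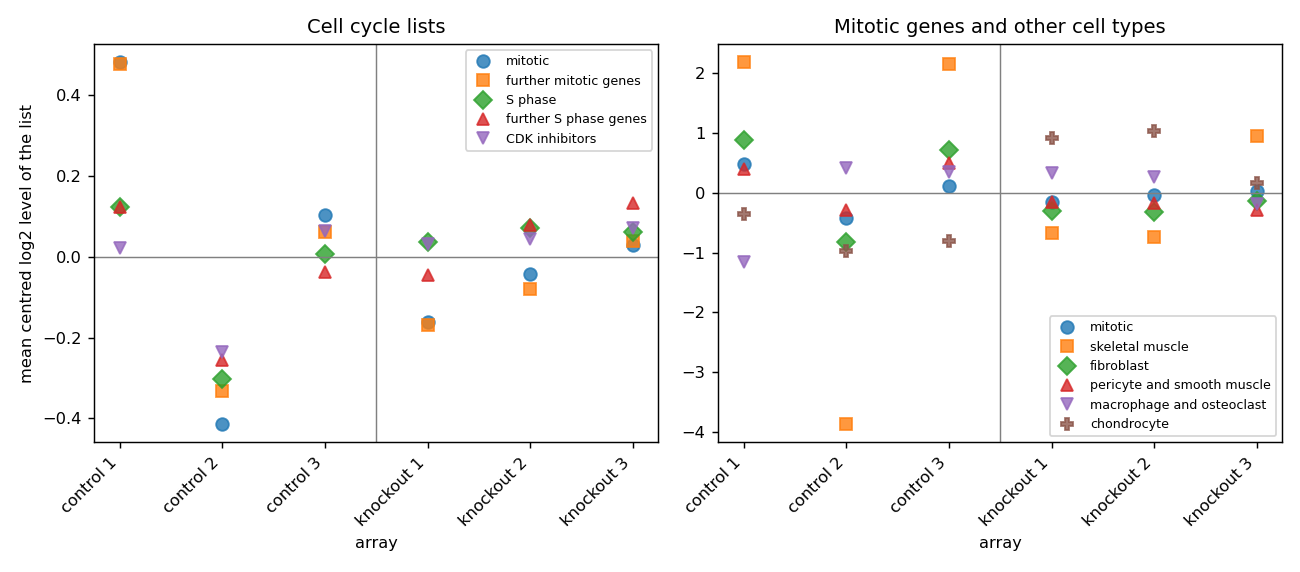
Mean centred log2 level of gene lists (y axis) on the 6 arrays (x axis), for cell cycle lists (left) and for mitotic genes beside markers of other cell types (right, with a wider axis). Mitotic genes are at 0.48 in control 1 and -0.41 in control 2, muscle markers are at -3.87 in control 2, and macrophage and osteoclast markers are at -1.15 in control 1.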

How the data were processed

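Each array's deposited values were 1 intensity per probe set on a linear scale, made by the authors. The submitters' processing notes name GCOS, with no version. Background correction, probe summary and scaling target were not given in the sources used here.

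From these, log2(signal + 16) was computed, so folds understate changes of dim genes, and arrays were quantile normalised, since their medians differed by 0.36 log2. Deposited medians were 18.7 to 28.6, and 38.6% to 46.9% of signals on an array lay under 16. Of 45101 probe sets, 64 control probe sets and 932 with several genes were left out, 9160 were unnamed, and 34945 named 1 gene (34741 matched to RefSeq). The highest-mean probe set stood for each of 18193 genes. The lowest 40% of genes, with mean log2 levels below 5.37, were not tested. Genotypes were compared over all 10916 remaining genes by limma 3.58.1 in R 4.3.3 (lmFit, eBayes with trend, 2-sided, Benjamini-Hochberg). The steps were tested on simulated data. The number of arrays limits the precision.

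The members and lists were chosen with earlier results of these data known. All 40 members, the G1 and inhibitor lists, and the 3 genes with the highest mean of each other pathway list were named, beside Esr1 and promoters with the most motif matches. Genes outside this rule are marked where they appear. Same-numbered arrays did not deviate together (r = -0.379, 0.0967 and -0.0411 across genes), so replicate numbers were not taken as pairs. Alternatives were the deposited scaling, pseudocounts of 4 and 64, other filters, the mean of all probe sets, a replicate block and each array left out.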

Additional observations from a re-analysis of the deposited data

How the results depend on the processing

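No cell cycle gene passed an adjusted limma p of 0.05 under any alternative run, and 0 of 38 did so with any array left out. Over all genes the count of higher calls was 30 with the deposited scaling and the counts ran from 0 to 86 higher and from 0 to 205 lower with 1 array left out, both maxima without control 2. The numbers do not pair the samples, and a fit with the replicate number as a block gave 0 calls over all genes in each direction and 0 members, with a smallest adjusted limma p of 0.62 among members. With the lowest 60% of genes left out, the mitotic median was -0.0077 over 12 genes, against -0.0861 over 23 in the main fit. The S phase median was 0.071 with the mean of all probe sets, with 9 genes above 0 and 6 below. It was 0.29 with the deposited scaling, against 0.13 in the main fit. That scaling turned the sign of Cdk1 (0.06), Ccnb2 (0.13), Nusap1 (0.14), Tpx2 (0.023), Prc1 (0.12), Ccne2 (0.086) and Rrm1 (0.075), while it moved the median of all genes to 0.14. A pseudocount of 64 turned Bub1 (-0.0021) and Kif20a (-0.0063), and the mean of all probe sets turned Cdc20 (-0.028), Cenpa (-0.11), Rrm2 (-0.077) and Gins1 (-0.013). In each setting but that mean the probe set of a gene stayed the same. The cause was not tested. Leaving out 1 array turned 17 of 23 mitotic and 5 of 15 S phase genes. The medians ran from -0.37 to 0.14 for mitotic and from 0.02 to 0.24 for S phase genes. Single genes ran from -0.48 to 0.14 (Mki67), -0.24 to 0.25 (Top2a), -0.37 to 0.15 (Cdk1), -0.65 to 0.083 (Ccna2), -0.36 to 0.26 (Ccnb2), -0.12 to 0.33 (Aurkb), -0.25 to 0.27 (Bub1), -0.18 to 0.28 (Birc5), -0.18 to 0.35 (Cdc20), -0.085 to 0.16 (Cenpa), -0.42 to 0.041 (Cenpe), -0.50 to 0.11 (Cenpf), -0.25 to 0.21 (Kif20a), -0.14 to 0.18 (Kif23), -0.11 to 0.18 (Nusap1), -0.29 to 0.0008 (Tpx2), -0.39 to 0.33 (Prc1), -0.21 to 0.070 (Ccne2), -0.061 to 0.24 (Mcm7), -0.20 to 0.053 (Rrm1), -0.073 to 0.34 (Rrm2) and -0.079 to 0.22 (E2f1). Foxm1 rests on signals of 21.0 to 47.1, near the level filter. Its unadjusted limma p was 0.123 with the deposited scaling (-0.37) and 0.102 when its probe sets were averaged (-0.29).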

Other observations

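Control 1 was the lowest of the 6 arrays for Ccnd2, Cdkn1a and Cdkn2b, as for Pcna and Cdt1. These were 1 of 10 tested G1 cyclins and kinases, 2 of 6 inhibitors and 2 of 15 S phase genes (background 18.9%). The shares of the G1 and S phase genes were below that of all genes, and that of the inhibitors rests on 2 genes. Control 1 was the highest for 22 of 23 mitotic genes (background 21.0%). Cdkn1a was at 10.91, 11.26 and 11.36 in controls and 11.45, 11.19 and 11.29 in knockouts. Cdkn2b was at 6.12, 6.39 and 6.50 in controls and 6.50, 6.68 and 6.58 in knockouts. These genes were picked out after their values were seen.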
